A study of Glycine max with 6 samples.

Results

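Heat shock proteins and heat shock factors were followed in the testa of a soybean pair from the variety Clark, a line with black (iRT) seeds and its near-isogenic partner with brown (irT) seeds. The members were the probe sets of the Soybean GeneChip that the array annotation gives a single gene symbol starting with HSP or HSF, 33 of 37593 soybean probe sets, for 16 genes. They comprise 8 probe sets of 4 small HSP genes, 10 probe sets of 2 HSP90 genes and 15 probe sets of 10 HSF genes. No symbol found by this rule was that of an HSP60, HSP70 or HSP100, and BiP, an HSP70 with a symbol of its own, is given among the partners. RNA came from 3 black plants, which carry the alleles i, R and T, and 3 brown plants, which carry i, r and T, so that the recessive i and the dominant T are shared and the labels set the lines apart at R. All plants grew in a cabinet and received no treatment. Seeds had reached 300 to 400 mg fresh weight, the transition stage, when their coats were taken, and each plant was hybridized to 1 array. The comparison therefore rests on a single pair of isolines.

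Heat shock proteins are chaperones. Small HSPs bind unfolding proteins without using ATP and keep them from clumping. HSP90 uses ATP to bring signalling proteins such as kinases and receptors into their active shape. HSFs are a family of transcription factors that includes those that switch on HSP genes through heat shock elements in their promoters. Apart from heat, many plant HSPs are made during normal growth, and small HSPs are known to accumulate in seeds as these mature and dry.

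Signals are on the log2 scale, so that 1 unit is a 2-fold change, and they were normalized by the authors with RMA. Levels of different probe sets cannot be set against each other. The level below which 95% of the 23394 pathogen probe sets on an array lay was used as background, 3.54 to 3.78 depending on the array, and 67.1% to 70.1% of soybean probe sets lay above it. The seed coat markers Ep, SCB1 and HPS were far above background on all 6 arrays, with 10.91 to 11.41, 11.25 to 12.55 and 13.76 to 14.16. Brown plant 2 was the lowest of the 6 plants for Ep (10.91) and SCB1 (11.25), and black plant 2 for HPS (13.76). Whether this bears on the levels of the members was not tested. Transcripts of embryo storage and maturation genes were also present, in 41 of 43 probe sets on at least 1 array, and differed between plants of a genotype. In whole seed coats, fewer cells of a type cannot be told apart from less RNA per cell.

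No HSP or HSF probe set differed between the genotypes past the threshold. In limma, with Benjamini-Hochberg adjustment over all soybean probe sets, 0 of 33 had an adjusted p under 0.05, where 41 soybean probe sets (0.109%) did, and the adjusted p of the members were 0.561 to 0.999. At an unadjusted p under 0.05 there were 5 of 33 (15.2%), beside 8.33% of soybean probe sets. This count was 0, 4 and 4 without black plants 1, 2 and 3, and 1, 3 and 5 without brown plants 1, 2 and 3. The share of soybean probe sets at this p was not counted in these fits. The thresholds of the study, a fold above 2 or below 0.5 with a p under 0.01, were passed by none of the members with the limma p, and by 0.301% of soybean probe sets. The log2 differences, black minus brown, ran from -0.42 to 0.39 with a median of -0.03 (all soybean probe sets -0.02), and were positive in 15 and negative in 18. No member differed by more than 0.5, beside 3.60% of soybean probe sets, a share too small for a contrast in 33 probe sets. The median absolute log2 difference was 0.15 in the members and 0.11 in all soybean probe sets. For 30 of the 33, the 95% interval of the difference lay within a 2-fold change in either direction. The other 3 were the probe sets of HSP90A1. The 30 include 6 probe sets below background on every array, which carry no fold.

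**Figure D1:**
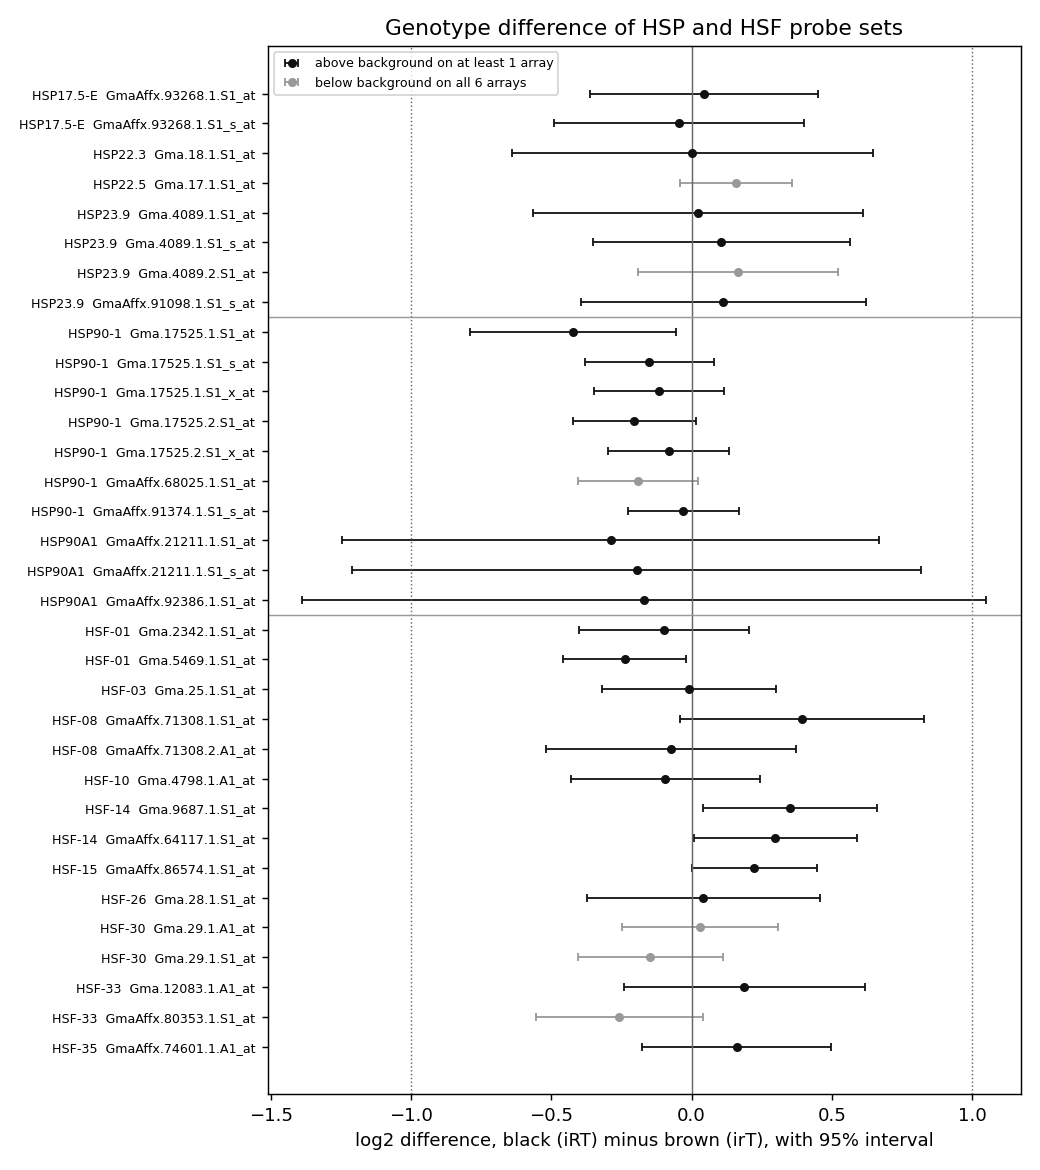
Log2 differences of the 33 HSP and HSF probe sets, black (iRT) minus brown (irT), as points with 95% intervals from limma (not adjusted for the number of probe sets), and dotted lines at a 2-fold change. All points lie between -0.42 and 0.39, and the intervals of the 3 HSP90A1 probe sets alone reach past a 2-fold change.

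Of the members, 26 (78.8%) were above background on all 6 arrays, 1 on 3 arrays and 6 (18.2%) on none, beside 64.8% of soybean probe sets on all and 27.3% on none. Those on none were 2 probe sets of HSF-30, 1 of HSF-33, 1 of HSP90-1, 1 of HSP22.5 and 1 of HSP23.9. No fold is given for them. HSF-33, HSP90-1 and HSP23.9 were measured by other probe sets, so HSF-30 and HSP22.5 were the genes without a signal above background.

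**Figure D2:**
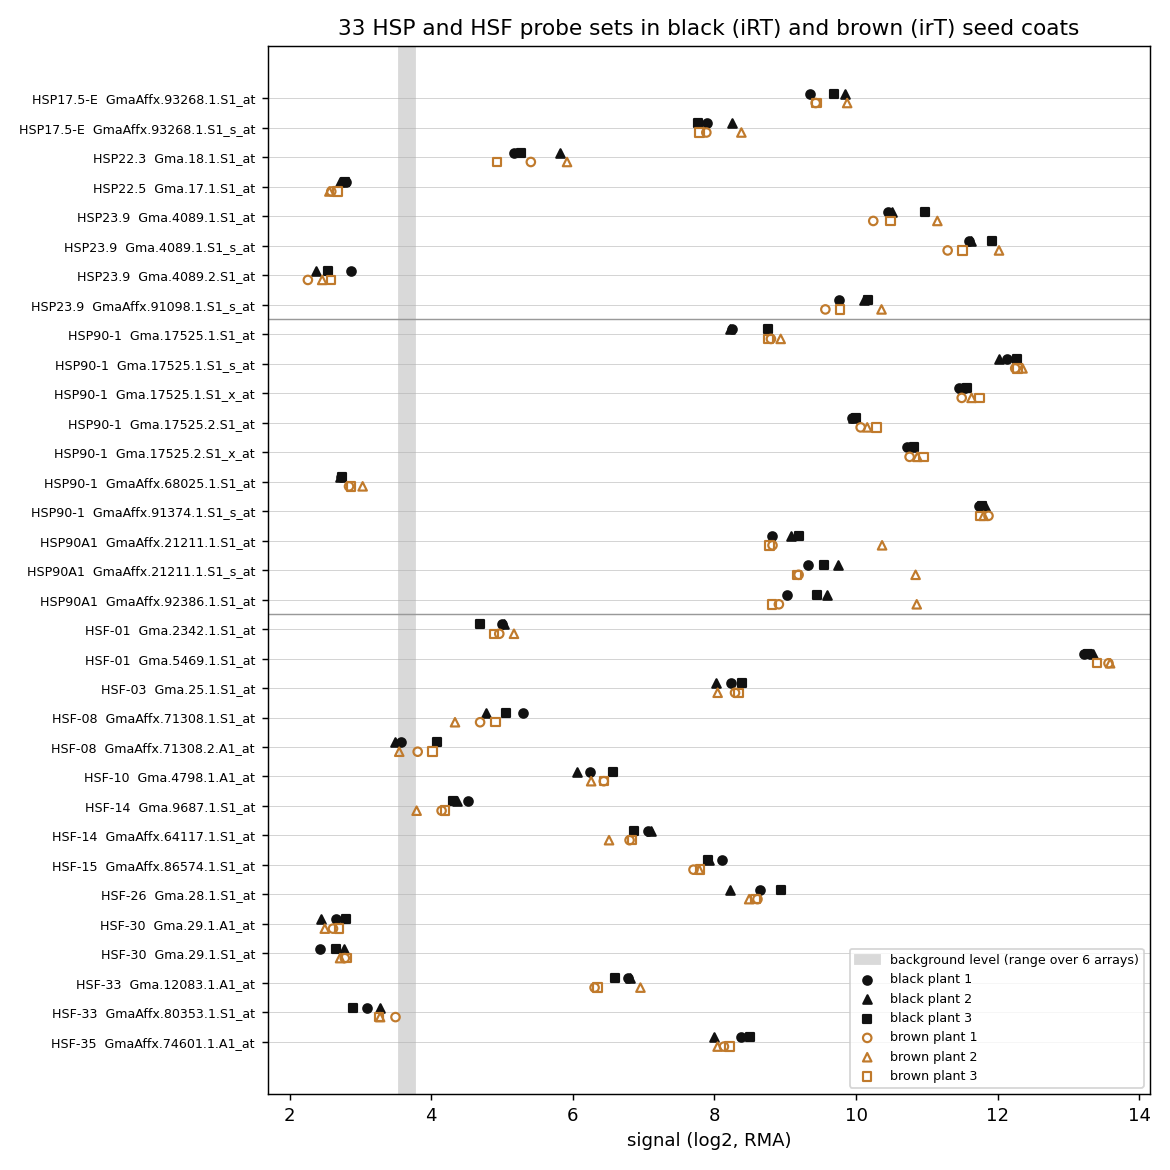
Log2 signals of the 33 probe sets in each plant, with filled black symbols for black plants, open brown symbols for brown plants and a grey band for the background level of the 6 arrays (3.54 to 3.78). In all 3 HSP90A1 probe sets the open triangle of brown plant 2 stands apart on the right, and in most other probe sets the symbols of both genotypes are intermixed.

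HSP90A1, a cytosolic HSP90, varied most among the members over the 6 plants, and a single plant stood apart. The probe set GmaAffx.92386.1.S1_at had 9.03, 9.59 and 9.46 in black plants 1, 2 and 3, against 8.91, 10.86 and 8.82 in brown plants 1, 2 and 3. Brown plant 2 was thus 2.40-fold above the next plant, and the lowest and highest plants, both brown, differed 4.12-fold. GmaAffx.21211.1.S1_at had 8.82, 9.09 and 9.20 in black plants, against 8.82, 10.37 and 8.78 in brown plants. GmaAffx.21211.1.S1_s_at had 9.32, 9.74 and 9.55 in black plants, against 9.19, 10.84 and 9.16 in brown plants. In each of the 3 probe sets, brown plants 1 and 3 were level with or below the lowest black plant, and brown plant 2 was above every black plant by more than 1 unit. Only 11 of 37593 soybean probe sets (0.0293%) were highest in brown plant 2 by 1 unit or more, and 3 of these were the HSP90A1 probe sets. This margin was chosen after the values were seen. The other plants were highest by this margin in 0 to 222 soybean probe sets and in none of the members.

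The difference between the genotypes for HSP90A1 had wide intervals. For GmaAffx.92386.1.S1_at black plants averaged 9.36 ± 0.30 and brown plants 9.53 ± 1.15 (SD, n = 3 each), a log2 difference of -0.17 with a 95% interval of -1.39 to 1.05 (limma adjusted p = 0.951). Without brown plant 2 it was 0.50, with an interval of 0.05 to 0.94 (adjusted p = 0.630), so the direction turned. The same happened for GmaAffx.21211.1.S1_at, at -0.29 with all plants and 0.23 without brown plant 2, and for GmaAffx.21211.1.S1_s_at, at -0.20 and 0.36. None of these passed an adjusted p of 0.05.

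HSP90-1, the other HSP90 gene under these symbols, varied less between plants, with ranges over the 6 plants of 0.13 to 0.72 above background. Its probe set Gma.17525.1.S1_at had 8.25, 8.22 and 8.75 in black plants, against 8.80, 8.94 and 8.76 in brown plants, so the genotypes did not overlap, with black plant 3 just below the lowest brown plant. The log2 difference was -0.42 (95% interval -0.79 to -0.06, limma adjusted p = 0.561), the largest among the members. Gma.17525.2.S1_at had 9.94, 9.96 and 10.00 in black plants, against 10.07, 10.16 and 10.29 in brown plants, again without overlap (log2 difference -0.20, 95% interval -0.42 to 0.01). The other 4 probe sets above background overlapped between genotypes. Gma.17525.1.S1_s_at had 12.14, 12.02 and 12.27 in black plants, against 12.25, 12.35 and 12.28 in brown plants (log2 difference -0.15). Gma.17525.1.S1_x_at had 11.45, 11.50 and 11.57 in black plants, against 11.49, 11.63 and 11.74 in brown plants (log2 difference -0.12). GmaAffx.91374.1.S1_s_at was the steadiest, at 11.74 to 11.82 in black and 11.76 to 11.87 in brown seed coats. Of the 6 probe sets above background, brown plant 2 was highest in 2, brown plant 3 in 3 and brown plant 1 in 1, and a black plant was lowest in all 6. The suffixes _s_at and _x_at mark probes that are shared with other transcripts, so those signals may include further HSP90 genes.

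**Figure D3:**
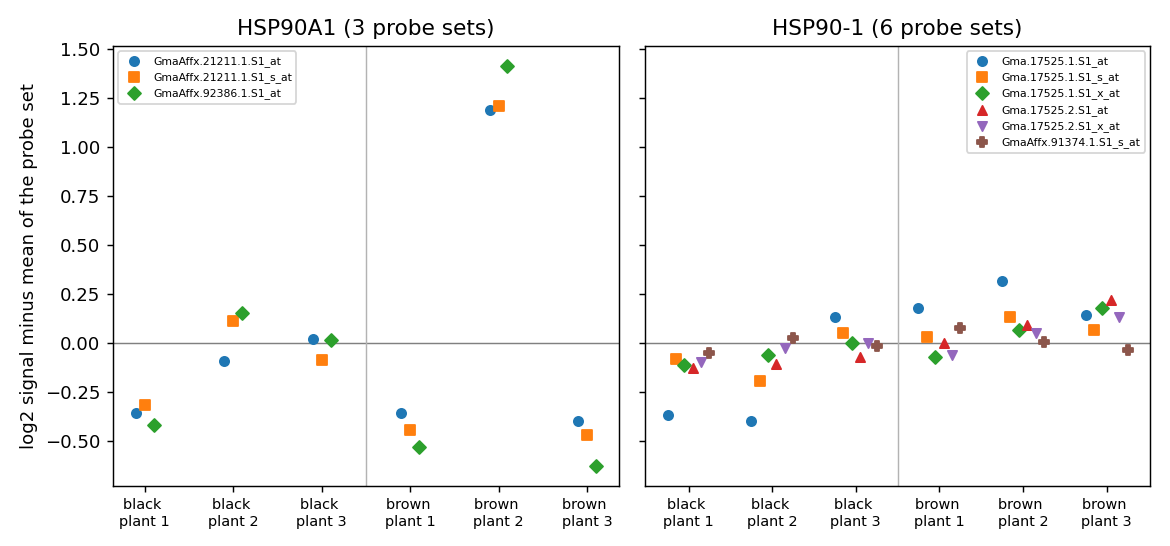
Log2 signal minus the mean of each probe set over 6 plants, for the 3 HSP90A1 and 6 HSP90-1 probe sets above background, with black plants left of brown plants. HSP90A1 lies more than 1 unit above its mean in brown plant 2, whereas HSP90-1 stays within 0.5 units of its mean in every plant.

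Small HSP transcripts were present in both genotypes, and no difference between them passed the test. The log2 differences were -0.04 to 0.11 in the 6 probe sets above background, with adjusted p of 0.912 to 0.999 in limma, and their 95% intervals reached at most 0.65 to either side of 0. HSP17.5-E is a class I small HSP of the cytosol. Its probe set GmaAffx.93268.1.S1_at had 9.35, 9.84 and 9.68 in black plants, against 9.43, 9.87 and 9.44 in brown plants (log2 difference 0.04, 95% interval -0.36 to 0.45). The second, GmaAffx.93268.1.S1_s_at, had 7.90, 8.24 and 7.77 in black plants, against 7.89, 8.38 and 7.79 in brown plants. In both, black plant 2 and brown plant 2 were the highest of their genotypes.

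HSP22.3, a small HSP of the endomembrane system, had 5.17, 5.83 and 5.27 in black plants, against 5.41, 5.92 and 4.93 in brown plants (log2 difference 0.0026, 95% interval -0.64 to 0.65). HSP23.9 is a small HSP of mitochondria. Its probe set Gma.4089.1.S1_at had 10.45, 10.51 and 10.98 in black plants, against 10.24, 11.15 and 10.48 in brown plants (log2 difference 0.02, 95% interval -0.57 to 0.61). Gma.4089.1.S1_s_at, annotated to the same gene, had 11.60, 11.62 and 11.92 in black plants, against 11.29, 12.02 and 11.50 in brown plants. GmaAffx.91098.1.S1_s_at had 9.76, 10.11 and 10.16 in black plants, against 9.57, 10.36 and 9.77 in brown plants, and the log2 difference was 0.11 in both. The groups overlapped in all of these probe sets.

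Brown plant 2 had the highest signal in all 6 small HSP probe sets above background, as it did in the 3 of HSP90A1. Over all members it was highest in 15 of 33, beside 15.3% of soybean probe sets. Several of these probe sets share a gene and are not independent. In HSP17.5-E the lead over black plant 2 was small, with 9.87 against 9.84, and in HSP23.9 the lead was over black plant 3, with 11.15 against 10.98. The mean deviation of the 6 probe sets from their own means was -0.17, 0.15 and 0.09 in black plants 1, 2 and 3, and -0.24, 0.41 and -0.23 in brown plants 1, 2 and 3. The median log2 difference of the 8 small HSP probe sets was 0.08 with all plants and 0.03 in the 6 above background. Medians without single plants were taken for all 8, with the 2 below background on every array, and not for the 6. The median of the 8 was 0.22 without brown plant 2, where the lowest limma adjusted p among them was 0.666, and 0.01 without brown plant 3. It was 0.13, 0.08 and 0.05 without black plants 1, 2 and 3, and turned negative only without brown plant 1, at -0.04.

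Among the HSFs, 4 of 15 probe sets did not overlap between genotypes, beside 14.0% of soybean probe sets, at small differences. Both probe sets of HSF-14 are among the 4 and are not independent. HSF-14 was higher in each black plant than in each brown plant by both. In GmaAffx.64117.1.S1_at, black plant 3 lay just above brown plant 3. GmaAffx.64117.1.S1_at had 7.07, 7.11 and 6.86 in black plants, against 6.80, 6.51 and 6.83 in brown plants, a log2 difference of 0.30 (95% interval 0.01 to 0.59, limma adjusted p = 0.593). Gma.9687.1.S1_at had 4.52, 4.36 and 4.30 in black plants, against 4.15, 3.79 and 4.19 in brown plants, a log2 difference of 0.35 (95% interval 0.04 to 0.66, limma adjusted p = 0.567). In both, brown plant 2 was lowest, and without it the differences were 0.20 and 0.23. HSF-15 (GmaAffx.86574.1.S1_at) had 8.11, 7.93 and 7.91 in black plants, against 7.70, 7.78 and 7.79 in brown plants, a log2 difference of 0.22 without overlap. HSF-01 lay the other way. Its probe set Gma.5469.1.S1_at had 13.23, 13.35 and 13.27 in black plants, against 13.57, 13.59 and 13.41 in brown plants, a log2 difference of -0.24 (95% interval -0.46 to -0.02, limma adjusted p = 0.571). The second probe set of HSF-01, Gma.2342.1.S1_at, overlapped between genotypes (log2 difference -0.10).

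Over all members, the genotypes did not overlap in 8 of 33 (24.2%), 4 with black above and 4 with black below, beside 14.0% of soybean probe sets (5.74% above and 8.30% below). Of these 8, 2 were below background on every array, those of HSP22.5 and of HSP90-1 (GmaAffx.68025.1.S1_at). HSF-14 and HSP90-1 each hold more than 1 of the 8, and probe sets of a gene are not independent. With single plants left out, which makes separation easier, the share of members without overlap was 24.2% without black plant 1 (soybean probe sets 20.8%), 39.4% without black plant 2 (26%) and 30.3% without black plant 3 (31.4%). It was 33.3% without brown plant 1 (20.8%), 39.4% without brown plant 2 (26.4%) and 27.3% without brown plant 3 (22%). Without black plant 3 the share of members was thus not above that of soybean.

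The largest HSF difference belonged to HSF-08 and was not separated. GmaAffx.71308.1.S1_at had 5.29, 4.78 and 5.05 in black plants, against 4.69, 4.34 and 4.91 in brown plants (log2 difference 0.39, 95% interval -0.04 to 0.83, limma adjusted p = 0.629). A second HSF-08 probe set, above background on 3 arrays, had a difference of -0.07, so the probe sets of this gene disagreed in direction. HSF-33 (Gma.12083.1.A1_at) had 6.77, 6.81 and 6.59 in black plants, against 6.31, 6.96 and 6.35 in brown plants, with brown plant 2 the highest and the other brown plants the lowest (log2 difference 0.19, and 0.40 with a limma adjusted p of 0.544 without brown plant 2). HSF-26 had 8.64, 8.22 and 8.94 in black plants, against 8.61, 8.49 and 8.58 in brown plants, so the black plants spread around the brown ones (log2 difference 0.04, and -0.13 without black plant 3). HSF-03, HSF-10 and HSF-35 had differences of -0.01, -0.09 and 0.16. In RefSeq, HSF-10 is listed as a long non-coding RNA, and the other 15 genes as protein-coding.

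Transcripts of seed maturation proteins, which also differed between plants of a genotype, were set beside the members. Over 32 probe sets of PM and LEA proteins the mean deviation was 1.88, 0.81 and -0.96 in black plants 1, 2 and 3, and -0.66, 0.35 and -1.43 in brown plants 1, 2 and 3. Black plant 1, the highest for PM and LEA proteins, had deviations of -0.17 for small HSPs and -0.36 for HSP90A1, and was the highest plant for none of these probe sets. Brown plant 2, the highest brown plant for PM and LEA proteins, was the highest plant for small HSPs (0.41) and HSP90A1 (1.27). Averaged over the 12 HSF probe sets above background, which deviated in both directions, the plants lay between -0.11 and 0.11, while single HSF probe sets had ranges over the 6 plants of 0.36 to 0.95. The part of seed maturation in the levels of the members was not tested.

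**Figure D4:**
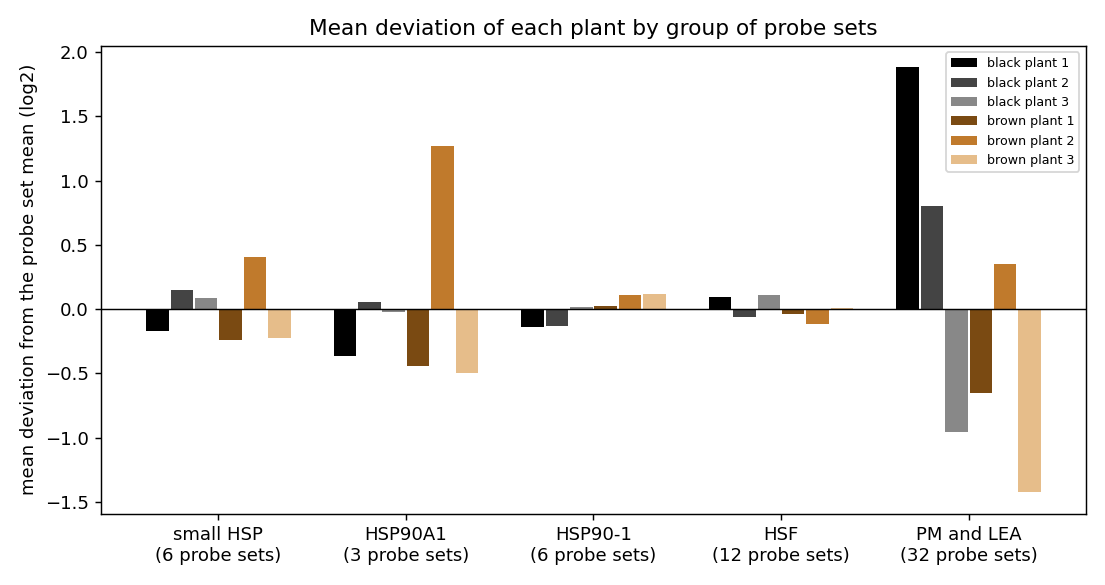
Mean deviation of each plant from the mean of each probe set, on the log2 scale, for small HSPs, HSP90A1, HSP90-1 and HSFs above background and for PM and LEA proteins, with bars for black plants 1 to 3 left of brown plants 1 to 3. Brown plant 2 is highest for small HSPs (0.41) and HSP90A1 (1.27), and black plant 1 for PM and LEA proteins (1.88).

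Partners of the heat shock proteins were followed in a list of 14 probe sets for 8 genes, among them BiP, the HSP70 of the endoplasmic reticulum, the protein disulfide isomerases of that compartment, HOP1, which links HSP70 to HSP90, and RAR1-1, a partner of HSP90 in disease resistance. None of the 14 passed an adjusted p of 0.05 in limma (0.489 to 0.935), and 2 (14.3%) had an unadjusted p under 0.05, beside 8.33% of soybean probe sets. The log2 difference was negative in 12 (85.7%) and positive in 2, with a median of -0.19, and it was negative in 54.6% of soybean probe sets, with a median of -0.02. Among soybean probe sets above background on at least 1 array, it was negative in 16101 of 27323, with a median of -0.03. The partner list was not followed in the alternative fits given below. Several of the 14 share a gene (PDIL-2, BIP4, PDIM-1 and RAR1-1) and are not independent. The probe set of BAG6A, among the 12, was below background on every array. BIP4 (Gma.17631.1.S1_at) had 10.81, 10.96 and 11.16 in black plants, against 11.30, 11.52 and 11.33 in brown plants, a log2 difference of -0.41 (95% interval -0.69 to -0.12, limma adjusted p = 0.489). PDIM-1, a protein disulfide isomerase, had 9.70, 10.08 and 9.83 in black plants, against 10.13, 10.31 and 10.19 in brown plants by Gma.6468.1.S1_at (log2 difference -0.34, limma adjusted p = 0.551), without overlap. The other PDIM-1 probe set, GmaAffx.71811.1.S1_at, had 7.50, 7.35 and 7.14 in black plants, against 7.77, 7.72 and 7.28 in brown plants, with overlap (log2 difference -0.26, limma adjusted p = 0.702). Black lay below brown without overlap in 4 of the 14 (28.6%), beside 8.30% of soybean probe sets, and above in none. The 4 were both probe sets of BIP4 and 1 each of PDIL-2 and PDIM-1. The 2 positive differences were those of RAR1-1 (0.11 and 0.04), with overlap.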

How the data were processed

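The authors labelled 100 ng of total RNA per plant by in vitro transcription for 16 h, hybridized 1 Affymetrix array per plant, and deposited log2 signals made by RMA in FlexArray. Its version is not given in the sources used here. Their tables of probe sets past their thresholds, which hold fold ratios, group means and SAM statistics, were not used.

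Genotypes were compared over 37593 soybean probe sets by linear models in R 4.3.3 (limma 3.58.1, lmFit followed by eBayes, two-sided tests, prior degrees of freedom 3.185), and p-values were adjusted by Benjamini-Hochberg. The study used SAM. Intervals are 95% intervals of limma. An exact permutation test of 3 against 3 plants cannot give a p below 0.1. The few arrays limit the precision. The pipeline was tested on simulated data. Members and lists were chosen with earlier results of these data known. Values of all plants are given, among members above background on at least 1 array, for the 4 of each class with the smallest p, the 4 with the largest difference and the 4 with the largest range, and for the 3 largest differences of the partner list. Other members are summarised. Of the partner list, 5 matches with the symbols GRP and CCT-D were set apart, since their function could not be checked. The annotation gives no gene titles, for the kept symbols either. None of the 5 passed an adjusted p of 0.05 in limma. The GRP probe sets GmaAffx.5376.1.S1_s_at and GmaAffx.91064.1.S1_x_at were lower in black without overlap (log2 differences -0.40 and -0.48), and the other matches overlapped. No symbol matched oleosins. All 16 genes were found in RefSeq (Glycine_max_v4.0), and no coordinates are given, since the files name no build. Alternatives were trend and robust settings, array weights, cyclic loess, median centring, a fit with pathogen and control probe sets, filters for dim and for shared probe sets, a 99th percentile for background, a fold of 1.5, the replicate number as a block, and each plant left out. The overlap of genotypes without single plants was added after the data were seen. Plots used matplotlib 3.10.9 and numpy 2.4.6 under Python 3.11.15.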

Additional observations from a re-analysis of the deposited data

How the results depend on the processing

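Of the HSP and HSF probe sets, 0 passed an adjusted p of 0.05 in limma under each of the 14 alternatives, with a smallest adjusted p of 0.109 for HSP90-1 (Gma.17525.1.S1_at) without black plant 3. None passed the fold and p thresholds of the study, also at a fold of 1.5, and 7 in place of 6 were at background with the 99th percentile. Over soybean, 41 probe sets passed with all plants and 13 to 36 without single plants (21 without black plant 1, 27 without black plant 3, 13 without brown plant 1, 22 without brown plant 2 and 15 without brown plant 3). Of the 41, 25 were higher in black, against 41 with the trend and robust settings and 39 with median centring. With the replicate number as a block, 22 passed, 14 higher and 8 lower in black, and no member did. Samples of the same number correlated at 0.09, 0.29 and 0.50 in their deviations from the group means. No correlation of unlike numbers was set beside these, so they do not decide whether the numbers are pairs. The labels state no pairing, and the main fit used none. The paper states that coats to be compared were taken on the same days, but ties no replicate number to a day. A shared harvest day of plants with the same number was not tested.

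The median log2 difference of the members was -0.10 to 0.12 without single plants, with 0.12 without brown plant 2, and -0.03 to 0.02 under the other alternatives. Of 274 combinations of 20 named probe sets and alternatives, 20 turned the direction, in 10 probe sets, none of which was called. With array weights HSP90A1 (GmaAffx.92386.1.S1_at) was at 0.0383 and HSP17.5-E (GmaAffx.93268.1.S1_s_at) at 0.0039, and the second of these was at 0.0062 with median centring. Without single plants the log2 differences were -0.53 to 0.50 (GmaAffx.92386.1.S1_at), -0.56 to 0.23 (GmaAffx.21211.1.S1_at) and -0.48 to 0.36 (GmaAffx.21211.1.S1_s_at) for HSP90A1, -0.065 to 0.19 (GmaAffx.93268.1.S1_at) and -0.18 to 0.14 (GmaAffx.93268.1.S1_s_at) for HSP17.5-E, -0.24 to 0.25 for HSP22.3, -0.17 to 0.28 (Gma.4089.1.S1_at), -0.050 to 0.31 (Gma.4089.1.S1_s_at) and -0.053 to 0.34 (GmaAffx.91098.1.S1_s_at) for HSP23.9, and -0.13 to 0.23 for HSF-26. The causes were not tested. With 3 arrays per genotype, differences of the size measured here could not be told from the spread between plants, and probe sets at background carry no fold.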

Other observations

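Some probe sets lay outside the rule for members. The symbols GSTU24 and HSP26-A share 3 probe sets, which therefore name no single gene. HSP26-A is a heat-inducible soybean transcript for a glutathione S-transferase and not a chaperone. The probe set GmaAffx.88762.1.S1_at had 3.88, 3.56 and 3.46 in black plants, against 3.41, 3.15 and 3.10 in brown plants, above background in black plant 1 alone, and the other probe sets of these symbols were above background on 1 array and on none. A probe set for LOC100782841, for which RefSeq gives HSF as a synonym, was below background on all 6 arrays.

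The 8 soybean probe sets that, beside HSP90A1, were highest in brown plant 2 by 1 unit or more carry no gene name other than LOC100500399. Gma.10763.1.S1_at had 6.94, 7.36 and 7.24 in black plants, against 7.21, 9.02 and 6.41 in brown plants. Gma.6606.1.S1_at had 7.60, 7.81 and 7.94 in black plants, against 7.40, 8.99 and 7.35 in brown plants. Both were chosen after their values were seen.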
